A study of Mus musculus with 30 samples.

Results

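Transcripts of 9 genes that encode enzymes of the tricarboxylic acid (TCA) cycle were followed in sorted mouse bone marrow progenitors after a nanoparticle treatment: Cs, Idh3a, Idh3b, Idh3g, Ogdh, Dlst, Suclg1, Fh1 and Mdh2. The genes were taken by symbol from the 55471 genes of each deposited count table, where each of the 9 occurs once, and all 9 passed the filter on low counts in both cell types. The TCA cycle runs in the mitochondrial matrix and oxidises the acetyl group of acetyl-CoA to carbon dioxide, and the electrons released feed the respiratory chain. Its intermediates are also drawn off for biosynthesis and act as signals, since 2-oxoglutarate is a substrate, and succinate and fumarate are inhibitors, of the dioxygenases that remove methyl groups from histones and DNA. Resting hematopoietic stem cells (HSCs) are known for relying largely on glycolysis and for using mitochondrial oxidation more as they enter differentiation. In monocytes, a fuller cycle and a build-up of fumarate belong to the described metabolism of trained immunity, the lasting heightened state of innate cells after a first stimulus.

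Treated mice received MTP10-HDL, in which a muramyl peptide (a bacterial cell wall motif sensed by innate cells) is built into a nanoparticle based on high-density lipoprotein, and control mice received phosphate-buffered saline (PBS). All were C57BL/6 mice with no further genotype named, and the sources used here do not give an age. Of the HSC libraries, 7 came from PBS and 6 from treated mice, and of those from multipotent progenitors (MPPs), the more differentiated offspring of HSCs, 2 came from PBS and 3 from treated mice. Each library holds RNA pooled from 4 mice, so the errors below describe the spread between pools. For MPPs the labels give 3 injections within 5 days and collection on the day after the last one, and for the HSC RNA samples no schedule is given. The question that the design poses for these genes is whether their transcript levels differ between treated and control progenitors.

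HSC libraries held 4064155 to 7879858 counts and MPP libraries 11252479 to 32769369. The 9 genes together took 3429 to 8723 counts per HSC library and 15959 to 53849 per MPP library. The shallowest HSC libraries were PBS 7 (4064155 counts) and PBS 5 (4215378 counts), and every treated MPP library was deeper than every control MPP library. HSC libraries fall into 3 groups by technical measures: the 4 with the fewest detected genes (PBS 1 and 4, MTP10-HDL 2 and 3), the 4 others with the highest share of ribosomal RNA (PBS 2 and 3, MTP10-HDL 1 and 4), and the remaining 5 (PBS 5, 6 and 7, MTP10-HDL 5 and 6). The labelled cell types were checked against their defining genes. Between HSC and MPP libraries, which were made with different kits, the MPP receptor gene Flt3 was at 65.2 to 178 CPM and 665 to 899.5 CPM, and the HSC marker Slamf1 at 23.9 to 47.8 CPM and 0.649 to 2.04 CPM. The HSC marker Procr went the other way, at 16.5 to 26.6 CPM in HSC and 27.3 to 61.1 CPM in MPP libraries, and Kit, shared by both types, overlapped at 357 to 709 CPM and 308 to 519 CPM. All 10 HSC markers and all 7 MPP markers examined were detected in every library of both types, so detection alone does not tell the types apart. In libraries of pooled cells, fewer cells that carry a transcript and less of it per cell cannot be told apart.

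In HSCs the mean level of all 9 genes was higher with MTP10-HDL than with PBS, but no gene passed the test. The median log2 fold change (MTP10-HDL over PBS) of the 9 genes was 0.25, against -0.02 for all 16631 genes tested. No gene tested passed a false discovery rate (FDR) of 0.05 in edgeR's quasi-likelihood test (0% called). An unadjusted p under 0.05 was found for 1469 genes (8.83%). On the same genes limma voom called 0. DESeq2 was run without the filter on low counts, on 47787 genes, and called 104, with none of the 9 among them. On these 47787 genes edgeR called 44, again none of the 9, so tool and filter both differ between these counts. At an unadjusted p under 0.05, 3 of the 9 genes (33.3%) were higher and 0 lower, against 4.36% higher and 4.47% lower over all genes tested. A fold change above 0 was found for 47.7% of all genes. Every treated library exceeded the PBS median for 5 of the 9 genes (55.6%, against 7.67% of all genes): Cs, Idh3g, Ogdh, Suclg1 and Fh1. None of the 9 had every treated library above every control, against 0.174% of all genes. The 9 genes were chosen with earlier results of these data known, so these shares describe them and are no test. With 1 library left out, the count of the 9 genes higher at an unadjusted p under 0.05 ranged from 2 to 5. It was 5 without PBS 1 and 2 without any 1 of MTP10-HDL 2, 4 or 5 or PBS 3.

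Ogdh and Dlst encode the E1 and E2 subunits of the 2-oxoglutarate dehydrogenase complex, which makes succinyl-CoA and is a main control point of the cycle. Ogdh (ENSMUSG00000020456, mm10 chromosome 11, 6291597 to 6359094) had the smallest p of the 9 in HSCs. Its level was lowest at 103, median at 137 and highest at 156 CPM in the 7 PBS libraries. In the 6 MTP10-HDL libraries it was lowest at 148, median at 169.7 and highest at 214 CPM. All 7 PBS libraries except PBS 4 lay below every treated library, so the groups overlapped through that library alone. The means of 131 ± 19.8 CPM (SD, n = 7) and 175 ± 23.6 CPM (n = 6) gave a log2 fold change of 0.42 (SE 0.13, edgeR adjusted p = 0.38), and its rank by p in the table was 239. Dlst (ENSMUSG00000004789, chromosome 12, 85110822 to 85134091) ranged from 89.97 to 138 CPM around a median of 113 with PBS and from 96.7 to 146 CPM around a median of 111.5 with MTP10-HDL. Only 3 of 6 treated libraries exceeded the PBS median of Dlst, and its log2 fold change was 0.09 (SE 0.14, adjusted p = 0.847), between 0.023 (without MTP10-HDL 3) and 0.17 (without PBS 1) with 1 library left out. Within a library the log2 ratio of Ogdh to Dlst counts, which does not depend on library scaling, was 0.26 ± 0.32 (SD) with PBS and 0.59 ± 0.18 with MTP10-HDL. The difference of 0.33 had an exact permutation p of 0.0478 (2-sided), or 0.239 after Benjamini-Hochberg adjustment over the 10 subunit and enzyme ratios compared.

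Idh3a, Idh3b and Idh3g encode the catalytic alpha and the regulatory beta and gamma subunits of NAD-dependent isocitrate dehydrogenase, which makes 2-oxoglutarate. Idh3g (ENSMUSG00000002010, chromosome X, 73778963 to 73786897) ranged from 74.1 CPM in PBS 5 to 146 CPM in PBS 2 around a median of 106.5, and with MTP10-HDL from 114 to 169 CPM around a median of 149.5. Each treated library exceeded the PBS median and 3 of them exceeded every PBS library, with a log2 fold change of 0.43 (SE 0.16, adjusted p = 0.49). Idh3b (ENSMUSG00000027406, chromosome 2, 130279309 to 130284451) had the narrowest PBS range of the 9 on the log2 scale (SD 0.12), from 116 to 149.8 CPM around a median of 136.5. Its treated libraries spread from 121 CPM in MTP10-HDL 3 to 197 CPM in MTP10-HDL 5, median 174, and 4 of them lay above every PBS library. The log2 fold change of Idh3b was 0.30 (SE 0.13, adjusted p = 0.524). Idh3a (ENSMUSG00000032279, chromosome 9, 54586511 to 54604662) ran from 25.8 CPM in PBS 5 to 53.4 CPM in PBS 2 with PBS, median 45.2, and from 36.8 to 52.4 CPM with MTP10-HDL, median 47.3. No treated library exceeded the highest control for this catalytic subunit, and its log2 fold change was 0.13 (SE 0.17, adjusted p = 0.829). It was 0.036 without PBS 5, 0.07 without PBS 7, 0.20 without PBS 2 and 0.19 without MTP10-HDL 3. Ratios between the subunits were compared within libraries, and Idh3a to Idh3g was -1.34 ± 0.16 (log2, SD) with PBS and -1.63 ± 0.31 with MTP10-HDL, a difference of -0.29 (exact permutation p = 0.0326, Benjamini-Hochberg 0.239). Idh3a to Idh3b differed by -0.13 (exact p = 0.515) and Idh3b to Idh3g by -0.16 (exact p = 0.442).

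Cs encodes citrate synthase, which joins acetyl-CoA to oxaloacetate and opens the cycle. Cs (ENSMUSG00000005683, chromosome 10, 128337727 to 128362482) was at 131 CPM in the lowest, 168.5 in the median and 186 in the highest PBS library, and at 169.2, 186.5 and 249.3 CPM in the treated ones. The PBS median was below all treated values and MTP10-HDL 3 stood highest, with a log2 fold change of 0.25 (SE 0.13, adjusted p = 0.58). The near copy Csl, a citrate synthase-like gene, had at most 4 counts in any HSC library and at most 3 in any MPP library.

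Suclg1, Fh1 and Mdh2 act in the closing steps of the cycle. Suclg1 encodes the alpha subunit shared by the ATP-forming and GTP-forming succinyl-CoA ligases. It was at 21.8, 27.7 and 52.3 CPM (lowest, median and highest) with PBS and at 30.9, 33.7 and 43.5 CPM with MTP10-HDL. PBS 1 held the top value, above every treated library, and 5 of the other PBS libraries lay below every treated one. The log2 fold change of Suclg1 (ENSMUSG00000052738, chromosome 6, 73248505 to 73276907) was 0.18 (SE 0.19, adjusted p = 0.78), and it was 0.37 without PBS 1 and 0.11 without PBS 5. Fh1 (ENSMUSG00000026526, chromosome 1, 175601378 to 175625635) encodes fumarate hydratase, the enzyme that removes fumarate. Its levels were 32.0, 41.6 and 60.1 CPM with PBS and 43.2, 50.8 and 61.3 CPM with MTP10-HDL, and 5 of 7 PBS libraries lay below every treated library. Its log2 fold change was 0.32 (SE 0.17, adjusted p = 0.582). Mdh2 (ENSMUSG00000019179, chromosome 5, 135778649 to 135790386) encodes mitochondrial malate dehydrogenase, which restores oxaloacetate. It varied most among the 9 in controls (log2 SD 0.45), from 95.4 CPM in PBS 6 to 216 CPM in PBS 1, median 134, whereas the treated libraries ran from 127 to 196 CPM, median 161. No treated library exceeded the highest control, and the log2 fold change was 0.19 (SE 0.19, adjusted p = 0.774). It was 0.33 without PBS 1, 0.11 without PBS 6 and 0.12 without PBS 7.

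**Figure D1:**
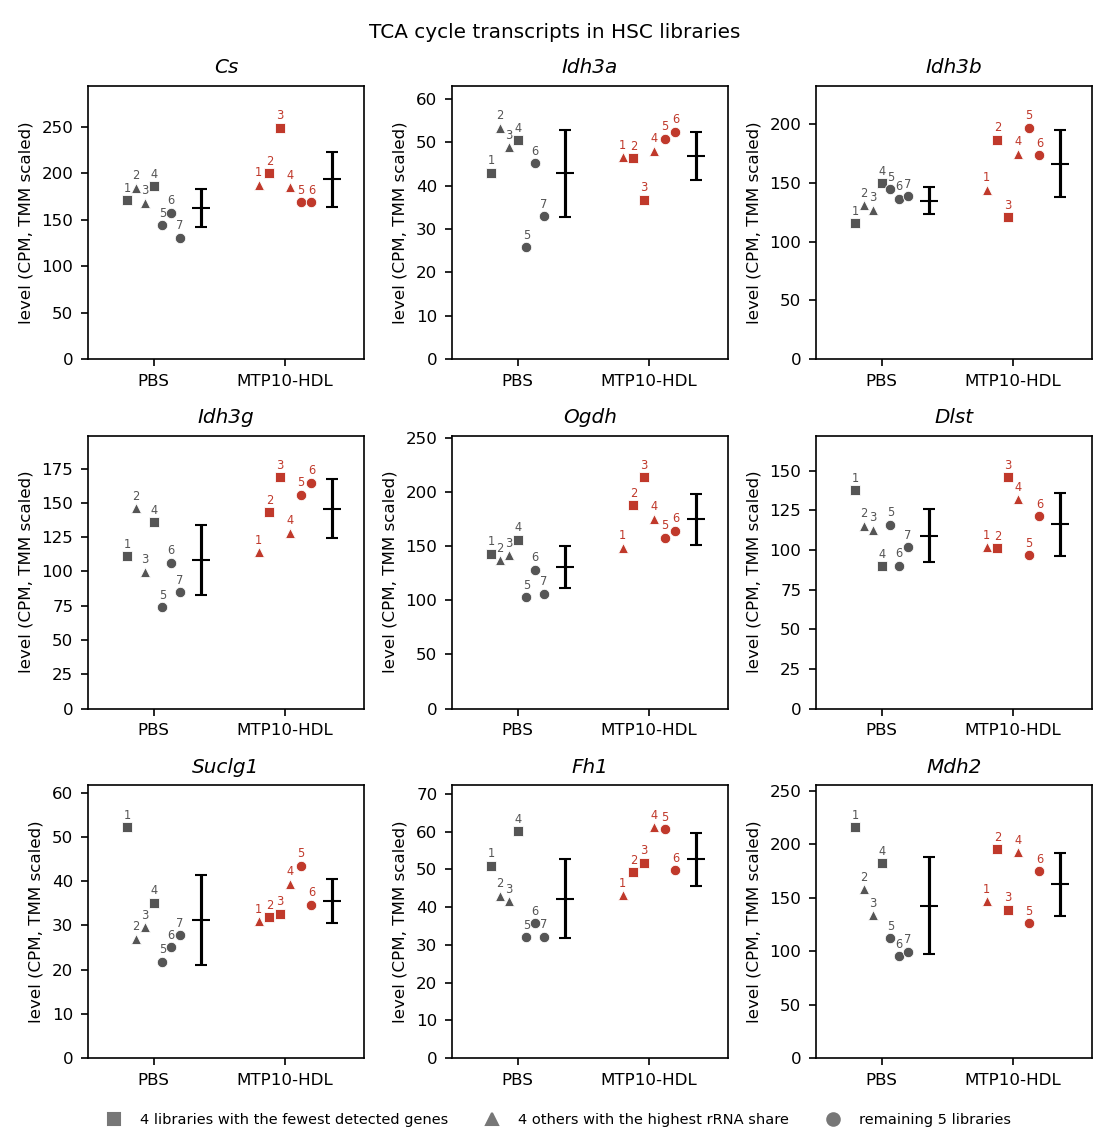
Level of each of the 9 genes in every HSC library (vertical axis, CPM after TMM scaling, starting at 0), by treatment (horizontal axis). Points are libraries with their column number, shapes mark the technical library groups, and black bars are the mean ± SD of 7 PBS and 6 MTP10-HDL libraries. Ogdh overlaps between treatments only through PBS 4, whereas the PBS libraries 5, 6 and 7 (circles) sit low for most genes and Mdh2 and Suclg1 peak in PBS 1.

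The 3 genes with the smallest p in HSCs were Ogdh, Idh3g and Idh3b, and the 150 bases just before their RefSeq start sites (GRCm38.p6, the mm10 assembly) are given to show where the searched motifs lie in them. Bases are 5′ to 3′ in the direction of the gene, and capitals mark matches to the motifs listed after them.
Ogdh, chr11:6291447-6291596, plus strand, most upstream of 6 listed starts: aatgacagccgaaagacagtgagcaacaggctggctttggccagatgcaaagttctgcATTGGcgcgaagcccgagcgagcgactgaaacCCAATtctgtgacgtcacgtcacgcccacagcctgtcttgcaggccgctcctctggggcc
Idh3g, chrX:73786898-73787047, minus strand: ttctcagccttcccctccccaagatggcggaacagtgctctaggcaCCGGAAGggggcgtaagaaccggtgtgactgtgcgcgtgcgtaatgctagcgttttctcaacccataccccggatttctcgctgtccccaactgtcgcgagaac
Idh3b, chr2:130284452-130284601, minus strand: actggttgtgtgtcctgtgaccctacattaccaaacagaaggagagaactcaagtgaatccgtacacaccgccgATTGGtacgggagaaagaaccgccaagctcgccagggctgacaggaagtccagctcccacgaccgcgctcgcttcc

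Motifs were searched on both strands in 300 bases per start, 250 before and 50 after it, in the 8 of 9 genes matched in the promoter table and in all 32851 promoters listed. The NF-Y motif CCAAT was in Cs, Idh3b, Ogdh and Fh1 (4 of 8 genes, 37.4% of all promoters), and the ETS and GABP motif CCGGAAG in Idh3b, Idh3g and Dlst (3 of 8 genes, 8.86%). The SP1 motif GGGCGG was in 5 of 8 genes (35.7%) and the MYC motif CACGTG in Ogdh, at other starts than the one printed (7.15%). The NRF1 motif, GCGCA and GCGC with any base between them (4.6%), and the ERR motif TCAAGGTCA (0.423%) were in none of these windows. The CCGGAAG match of Idh3b crosses its start site, at position -5, and so is not in the stretch printed. Matches of different motifs did not overlap, and a gene with several listed starts, such as Ogdh with 6, was counted when any of them held the motif.

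The HSC differences between treatments were unequal among the technical library groups, each of 2 treated and 2 or 3 PBS libraries. Whether the treatment difference depends on the group was not tested. With the library group as a covariate, the median log2 fold change of the 9 genes was 0.22, against 0.25 without it. The mean of the 9 genes (centred log2 CPM with a prior count of 2) differed by 0.05 among the 4 libraries with the fewest detected genes, by 0.14 among the 4 with the highest ribosomal RNA share, and by 0.51 among the remaining 5. In that last group PBS 5, 6 and 7 had scores of -0.41, -0.25 and -0.37, below every other HSC library, while the 2 treated libraries stood at 0.16 and 0.18. PBS 5 was the lowest of all 13 libraries for 5 of the 9 genes. Cs, Idh3b, Idh3g, Ogdh and Dlst were higher with treatment in all 3 groups, Ogdh by 0.42, 0.21 and 0.52 and Idh3b by 0.19, 0.30 and 0.40. Idh3g differed by 0.34, 0.0021 and 0.87. Idh3a differed by -0.17, -0.11 and 0.61, Suclg1 by -0.41, 0.30 and 0.64, Fh1 by -0.13, 0.28 and 0.72, and Mdh2 by -0.27, 0.21 and 0.54, so these 4 had both signs. Fitted without the last group, which was tried after the data were seen, the median of the 9 genes was 0.085, with 6 of 9 higher and 0 at an unadjusted p under 0.05. Without PBS 5 and 7 alone it was 0.16.

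**Figure D2:**
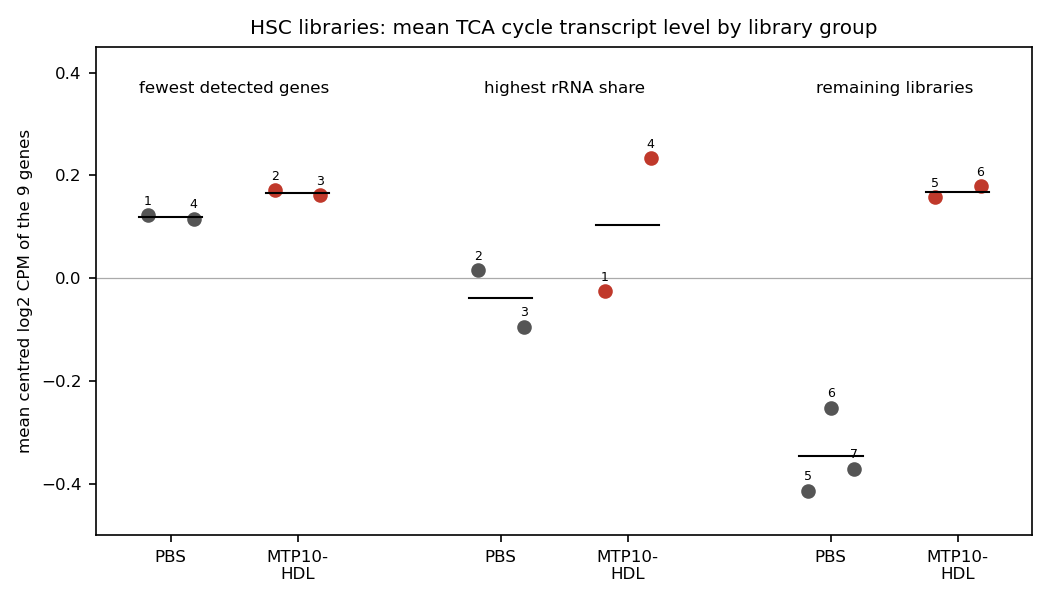
Mean of the 9 genes' centred log2 CPM (vertical axis) in the 13 HSC libraries, by technical library group and treatment (horizontal axis). Points are libraries with their column number and black lines are means. The treatments lie 0.05, 0.14 and 0.51 apart from left to right, and PBS 5, 6 and 7 are the lowest points.

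Depth and markers of other cells went along with some of these values and not with others. The 3 low PBS libraries held 4064155 to 6126772 counts and the treated libraries of their group 5467455 to 7549375. Erythroblast markers summed to 111 to 442 CPM with PBS and 54.8 to 130.5 CPM with MTP10-HDL, with PBS 5 highest, and 8 of 8 were detected in every PBS library and 7 of 8 in every treated one. Plasma cell markers summed to 167 to 6282 CPM and 152 to 1227 CPM, and B cell markers to 36.3 to 390.3 CPM and 39.1 to 95.6 CPM. Neutrophil markers summed to 88.6 to 3186 CPM and 494 to 4742 CPM, and monocyte and macrophage markers to 143 to 1800.3 CPM and 172 to 2641 CPM. MTP10-HDL 1, which had the highest neutrophil and monocyte sums, had the lowest score of the 9 genes among treated libraries, -0.03. By contrast, MTP10-HDL 6 had a neutrophil sum of 2736 CPM and a score of 0.18. The highest score, 0.23, was in MTP10-HDL 4, which held 5612148 counts. T and NK cell markers summed to 30.7 to 95.5 CPM and 58.0 to 115 CPM. No marker of these lists was at 0 in every library of either HSC treatment. The part of depth and of these cells in the TCA cycle values was not tested.

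In MPPs all 9 genes again had a higher mean with MTP10-HDL, at a median log2 fold change of 0.36 against 0.02 for the 15449 genes tested, of which 52% were higher. No gene tested passed the FDR threshold in edgeR (0% called), while 963 genes (6.23%) had an unadjusted p under 0.05. On the same genes limma voom called 0. DESeq2, again without the filter on low counts, was run on 26208 genes and called 163, with none of the 9 among them. On these 26208 genes edgeR called 345, also none of the 9. Of the 9 genes, 1 was higher at an unadjusted p under 0.05 (11.1%, against 2.17% of all genes) and 0 were lower (4.06% of all genes). That gene was Idh3g. Without any 1 of MTP10-HDL 1, 2 or 3 or PBS 2 this count was 0, and without PBS 3 it was 2. In 5 of the 9 genes (55.6%) every treated library lay above both controls, against 12% of all genes tested, and in 8 (88.9%, all except Ogdh) every treated library lay above the PBS median, against 23% of all genes. As in HSCs, these shares describe genes chosen with earlier results known and are no test. With 2 libraries against 3, an exact permutation test cannot give a p below 0.1.

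Idh3g was at 149.7 and 201 CPM in MPP PBS libraries 2 and 3 and at 222, 287 and 270.3 CPM in MTP10-HDL libraries 1, 2 and 3. The treated libraries were all above the controls, and the log2 fold change was 0.57 (SE 0.23, edgeR adjusted p = 0.787), or 0.36 without PBS 2. Fh1 was at 63.8 and 98.5 CPM with PBS and at 107, 150.2 and 116 CPM with MTP10-HDL. Its log2 fold change was 0.62 (SE 0.27, adjusted p = 0.798), and it was 0.32 without PBS 2 and 0.96 without PBS 3. Idh3a was at 80.7 and 91.2 CPM and at 113.5, 105 and 112.6 CPM. This gap between the treatments was wider than the spread within either, with a log2 fold change of 0.36 (SE 0.19, adjusted p = 0.83). Cs was at 176 and 145 CPM and at 209, 189 and 207 CPM (0.33, SE 0.20, adjusted p = 0.865), again without overlap, and its log2 fold change was 0.20 without PBS 3. Mdh2 was at 158 and 179 CPM and at 215, 299.6 and 185 CPM (0.47, SE 0.26, adjusted p = 0.843), and MTP10-HDL 3 exceeded the higher control by little. Without MTP10-HDL 2 the log2 fold change of Mdh2 was 0.25.

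The other 4 genes overlapped between treatments in MPPs. Dlst was the most even gene, at 183 and 186 CPM with PBS and at 189, 186 and 188 CPM with treatment (0.03, SE 0.18, adjusted p = 0.99). Ogdh was at 216 and 171 CPM with PBS and at 227, 170.4 and 235 CPM with MTP10-HDL (0.12, SE 0.23, adjusted p = 0.964), so that 1 treated library lay below both controls. Idh3b was at 139 and 189 CPM and at 178, 209 and 182 CPM (0.21, SE 0.22, adjusted p = 0.919). Suclg1 was at 88.7 and 152 CPM and at 126, 238 and 135 CPM (0.47, SE 0.36, adjusted p = 0.885), and its controls differed more than those of any other member. Its log2 fold change was 0.12 without MTP10-HDL 2 or without PBS 2, and 0.91 without PBS 3.

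**Figure D3:**
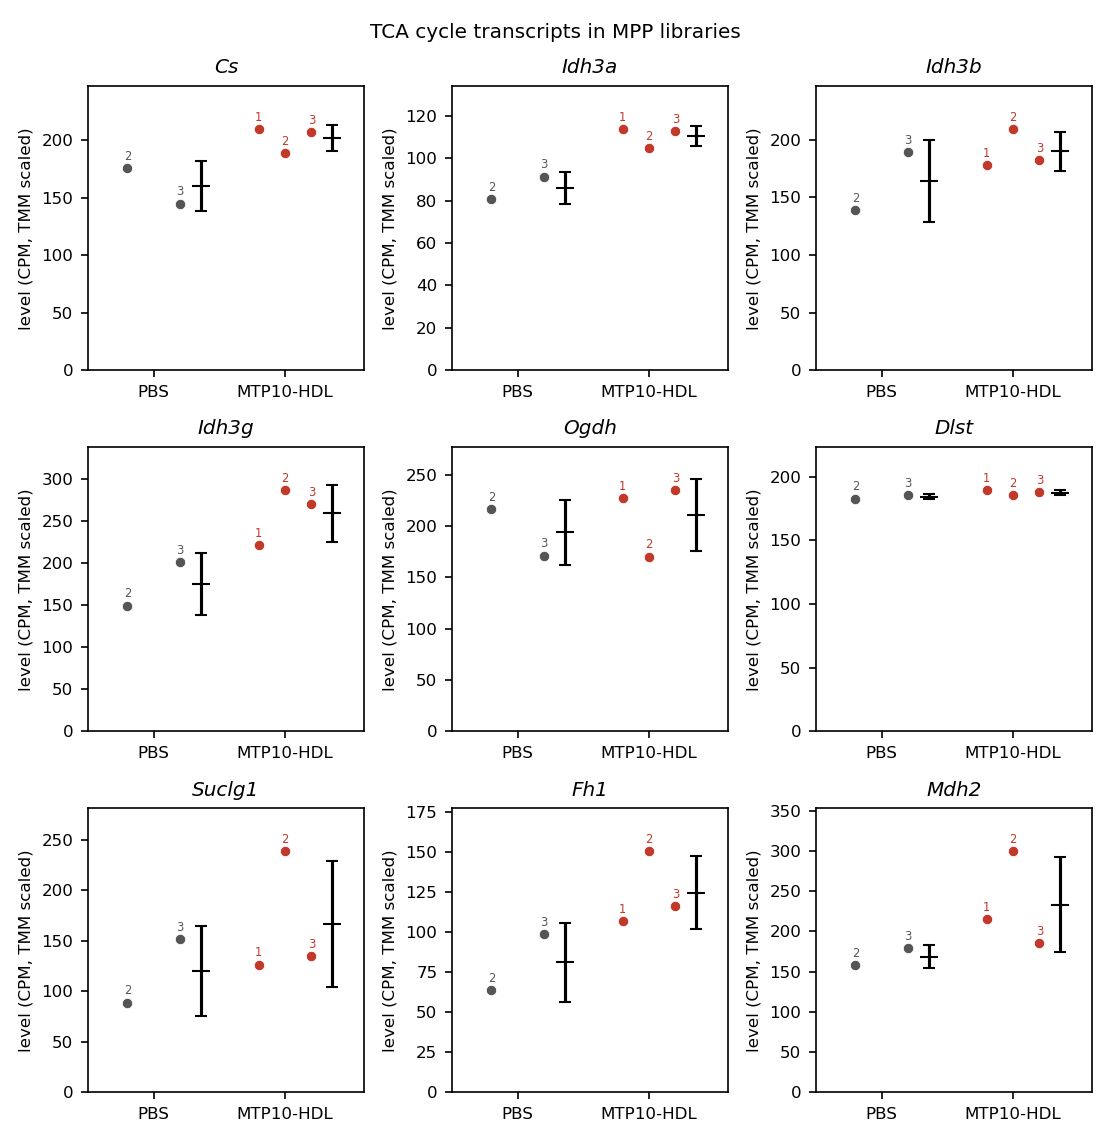
Level of each of the 9 genes in every MPP library (vertical axis, CPM after TMM scaling, starting at 0), by treatment (horizontal axis). Points are libraries with their column number and black bars are the mean ± SD of 2 PBS and 3 MTP10-HDL libraries. Dlst is flat across all 5 libraries, and Suclg1, Fh1 and Mdh2 peak in MTP10-HDL 2, where Ogdh and Cs have their lowest treated values.

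MPP libraries of the same treatment differed in opposite directions for different members. MTP10-HDL 2 held the highest value of Idh3b, Idh3g, Suclg1, Fh1 and Mdh2 and the lowest treated value of Cs, Ogdh, Idh3a and Dlst. Between the controls, PBS 3 exceeded PBS 2 for Idh3a, Idh3b, Idh3g, Suclg1, Fh1, Mdh2 and, by little, Dlst, and was below it for Cs and Ogdh. Among enzyme genes outside the 9, the highest MPP value was also in MTP10-HDL 2 for Sdhb, a subunit gene of succinate dehydrogenase, which was at 75.2 and 105 CPM with PBS and at 129, 225 and 102 CPM with MTP10-HDL. Library measures also differed between the MPP treatments. Ribosomal RNA took 1.26% to 1.47% of counts with PBS and 0.508% to 0.915% with MTP10-HDL, and immunoglobulin genes 6.2006% to 12.5% and 2.76% to 4.26%. Plasma cell markers summed to 3557 to 6987 CPM with PBS and 1251 to 3612 CPM with MTP10-HDL, so these ranges overlapped. All 5 of them were detected in every MPP library. Erythroblast markers summed to 53.6 to 54.6 CPM and 17.6 to 38.8 CPM, with 8 of 8 detected in both PBS libraries and 5 of 8 in every treated one. The T cell genes Cd3e and Cd3g were at 0 in all treated MPP libraries. The 7 MPP markers summed to 2533 to 2972 CPM with PBS and 3349 to 3548 CPM with MTP10-HDL. The 10 HSC markers summed to 1681 to 1871 CPM with PBS and 1043 to 1310 CPM with MTP10-HDL. Kit and Ly6a are in both lists. With treatment and these measures varying together over 5 libraries, their parts cannot be told apart.

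Whether the 9 genes responded differently in MPPs and HSCs was tested in 1 fit of all 18 libraries, where 1 of 24470 genes passed the FDR threshold (0.00409% called) and 945 (3.86%) had an unadjusted p under 0.05, 1.19% higher and 2.67% lower. The gene past the threshold, looked up after its value was seen, was the predicted gene Gm43360 (-6.00, SE 0.91, adjusted p = 0.0368), and none of the 9 was among the 945. The MPP response minus the HSC response ran from -0.28 (SE 0.29) for Ogdh to 0.33 (SE 0.33) for Fh1, positive for 6 genes (55.8% of all genes) and negative for Ogdh, Idh3b and Dlst. The adjusted p was 1 for each, so no difference between the cell types was detected for these genes. This does not show that the responses were alike. Levels themselves were not compared between the cell types, whose libraries were made with different kits, nor between genes, since no transcript lengths were used here.

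**Figure D4:**
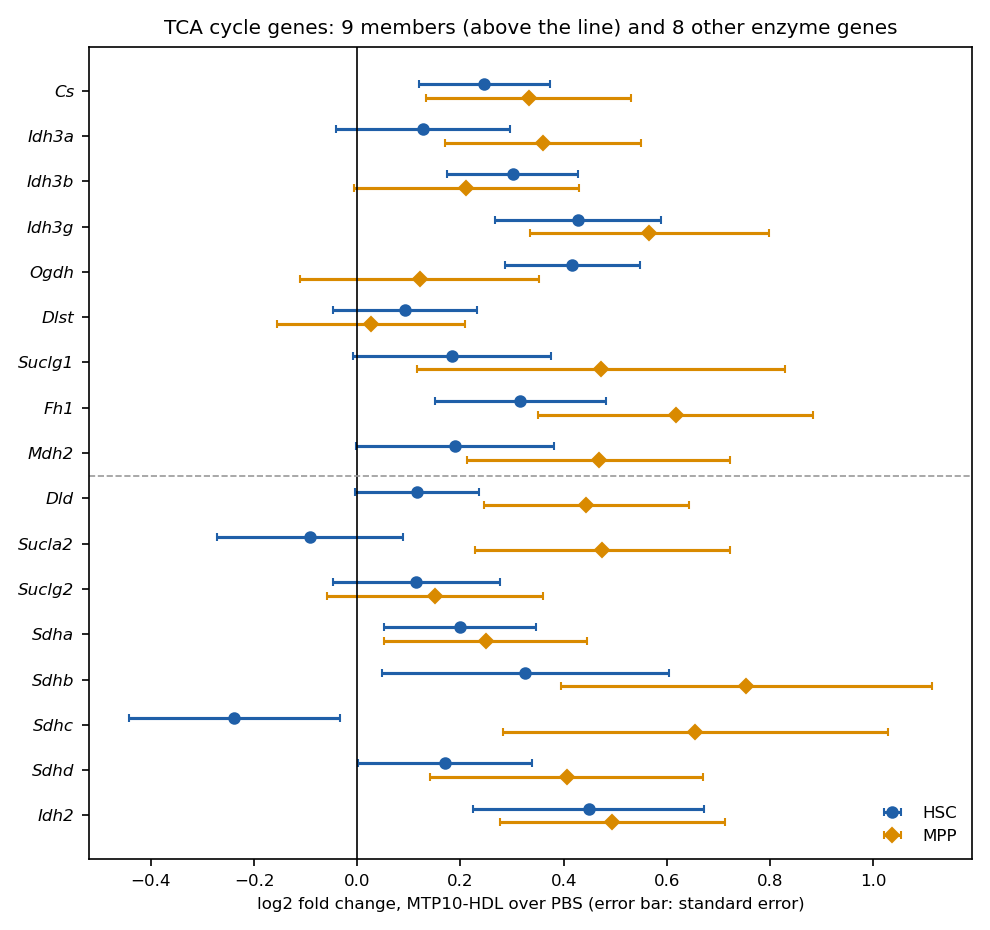
Log2 fold change of MTP10-HDL over PBS (horizontal axis) with its standard error for the 9 genes, above the dashed line, and 8 other enzyme genes of the cycle, below it, in HSCs (circles) and MPPs (diamonds). All 9 members lie to the right of 0 in both cell types, from 0.09 to 0.43 in HSCs and from 0.03 to 0.62 in MPPs, and Sucla2 and Sdhc lie to the left in HSCs.

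Of the other enzyme genes of the cycle, 8 were listed beside the 9: Dld, Sucla2, Suclg2, Sdha, Sdhb, Sdhc, Sdhd and Idh2. None passed the FDR threshold in either cell type. In HSCs 6 of these 8 were higher, 0 of them at an unadjusted p under 0.05, and the median log2 fold change was 0.14. In MPPs 8 of 8 were higher, 0 at that level, and the median was 0.46. Over all genes tested, 47.7% were higher in HSCs and 52% in MPPs, and 4.36% and 2.17% were higher at that level. Idh2, the NADP-dependent isocitrate dehydrogenase, had log2 fold changes of 0.45 (SE 0.22) in HSCs and 0.49 (SE 0.22) in MPPs. Sdha and Sdhb, of succinate dehydrogenase, had 0.20 (SE 0.15) and 0.33 (SE 0.28) in HSCs and 0.25 (SE 0.20) and 0.75 (SE 0.36) in MPPs. Dld, the E3 subunit that joins Ogdh and Dlst, had 0.12 (SE 0.12) and 0.44 (SE 0.20). Sucla2, the partner of Suclg1 in the ATP-forming ligase, had -0.09 (SE 0.18) and 0.47 (SE 0.25), and within HSC libraries the ratio of Suclg1 to Sucla2 differed by 0.33 between treatments (exact permutation p = 0.125).

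Reactions that feed or drain the cycle held no gene past the FDR threshold either. For comparison, 47.7% of all genes tested were higher in HSCs and 52% in MPPs. At an unadjusted p under 0.05, 4.36% of all genes were higher in HSCs, and 2.17% were higher and 4.06% lower in MPPs. Of the genes for pyruvate entry and its control, 11 of 13 tested were higher in HSCs and 9 of 12 in MPPs, 0 at an unadjusted p under 0.05 in either. They include Pdha1 of pyruvate dehydrogenase (0.21, SE 0.15 in HSCs and 0.46, SE 0.23 in MPPs) and its kinases Pdk1 (-0.08, SE 0.15 and -0.08, SE 0.22) and Pdk3 (0.47, SE 0.25 and 0.16, SE 0.20). Pdp2 had 0.0087 (SE 0.18) and 0.38 (SE 0.22), Pdpr 0.28 (SE 0.15) and 0.22 (SE 0.51), and the pyruvate carrier gene Mpc2 -0.21 (SE 0.21) and 0.59 (SE 0.35). Among filling and draining reactions 6 of 10 tested genes were higher in HSCs, 2 at an unadjusted p under 0.05, and 7 of 10 in MPPs, with 1 higher and 1 lower at that level. The malic enzyme Me2 (0.54, SE 0.18 in HSCs and 0.56, SE 0.21 in MPPs) was the higher gene in both, Glud1, which makes 2-oxoglutarate from glutamate, was the second in HSCs (0.43, SE 0.16; 0.18, SE 0.22 in MPPs), and the pyruvate carboxylase gene Pcx was the lower gene in MPPs (-0.97, SE 0.39; -0.31, SE 0.58 in HSCs). Pck2 had 0.28 (SE 0.14) and 0.49 (SE 0.26). Acod1, which makes itaconate from a cycle intermediate in activated macrophages, did not pass the filter on low counts, at 0 to 5.31 CPM in HSC and 0 to 0.11 CPM in MPP libraries.

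Genes for cytosolic counterparts, lipoate attachment and transport had no member past the FDR threshold either. The shares of all genes tested that were higher were 47.7% in HSCs and 52% in MPPs. At an unadjusted p under 0.05, 4.36% were higher and 4.47% lower in HSCs, and 2.17% were higher in MPPs. Of 4 cytosolic counterparts 3 were higher in HSCs and 4 in MPPs: Got1 (0.54, SE 0.21 and 0.27, SE 0.22), Idh1 (0.42, SE 0.28 and 0.04, SE 0.21), Mdh1 (0.06, SE 0.18 and 0.47, SE 0.26) and Aco1 (-0.13, SE 0.25 and 0.06, SE 0.21). Lipoate is the cofactor of Dlst, and 7 of 8 genes for its attachment and for assembly of succinate dehydrogenase were higher in HSCs and 8 of 8 in MPPs, 1 at an unadjusted p under 0.05 in each. That was Lipt2, a lipoyl transferase gene, at 1.10 to 4.70 CPM with PBS and 4.12 to 11.2 CPM with MTP10-HDL in HSCs (1.29, SE 0.40) and 0.79 (SE 0.29) in MPPs. Lias had 0.29 (SE 0.17) and 0.26 (SE 0.27), Mcat 0.31 (SE 0.29) and 0.47 (SE 0.27), and Sdhaf4 0.01 (SE 0.47) and 0.78 (SE 0.49). Of 6 carrier genes 4 were higher in HSCs and 5 in MPPs. The 2-oxoglutarate carrier Slc25a11 (0.42, SE 0.19 and 0.30, SE 0.27) was higher, and the oxodicarboxylate carrier Slc25a21 lower (-1.69, SE 0.49 and -1.67, SE 1.61), at an unadjusted p under 0.05 in HSCs. Slc25a12 had 0.33 (SE 0.18) and 0.31 (SE 0.22), Slc25a13 -0.03 (SE 0.20) and 0.25 (SE 0.22), and Slc25a10 0.21 (SE 0.32) and 0.28 (SE 0.25).

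Genes of mitochondrial biogenesis and mass were split, with 7 of 12 higher in each cell type and medians of 0.05 in HSCs and 0.06 in MPPs. Of all genes tested, 47.7% were higher in HSCs and 52% in MPPs, and 2.17% were higher at an unadjusted p under 0.05 in MPPs. Tfam, which binds mitochondrial DNA, had 0.04 (SE 0.18) and 0.40 (SE 0.31), the coactivator gene Ppargc1a -0.44 (SE 0.33) and -0.12 (SE 0.47), and Polrmt 0.11 (SE 0.28) and 0.25 (SE 0.25). The outer membrane genes Tomm20 and Vdac1 had 0.27 (SE 0.20) and 0.31 (SE 0.20) in HSCs and 0.13 (SE 0.24) and 0.19 (SE 0.21) in MPPs. The chaperonin gene Hspd1, at -0.01 (SE 0.17) in HSCs and 0.60 (SE 0.21) in MPPs, was the 1 gene of this list at an unadjusted p under 0.05, in MPPs. The 5 genes whose level most resembled the mean of the 9 over the 13 HSC libraries, among 9708 genes of at least 10 CPM, were Poldip3 (Pearson r = 0.94), Psmb2 (0.93), Mogs (0.93), Dctpp1 (0.93) and Psmd2 (0.92). These values describe likeness over libraries that share depth and technical group. In the same order, the 5 genes had HSC log2 fold changes of 0.28 (SE 0.18), 0.52 (SE 0.21), 0.47 (SE 0.19), 0.61 (SE 0.27) and 0.30 (SE 0.15). They were picked by likeness to a mean that was itself higher with treatment, so these fold changes are no separate result.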

How the data were processed

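Raw read counts per Ensembl gene were deposited by the authors as 1 table per cell type, with whole numbers in 13 HSC and 5 MPP columns. Per the labels' protocols, HSC libraries came from amplified complementary DNA read singly over 50 bases, and MPP libraries from poly-A selected RNA with insect carrier RNA and a directional kit. Per the submitters' processing notes, the builds are mm10 and the tools named are STAR 2.5.2b and CASAVA 1.8.2 for the HSC samples, and STAR 2.7.2a, R 3.6.1 and DESeq2 1.24 for the MPP samples. No source used here names the counting tool, annotation release or strand setting, so reads of overlapping antisense genes may be included. HSC columns PBS 1 to 6 match the labels, and column PBS 7 was used as a PBS library without a number of its own. The 12 chromatin accessibility samples of the series were not analysed here.

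Each cell type was fitted apart with edgeR 4.0.16 in R 4.3.3 (TMM scaling, filterByExpr defaults, quasi-likelihood F test, Benjamini-Hochberg over all genes tested, FDR 0.05), and the script was tested on simulated data. Levels are TMM-scaled CPM, and a standard error (SE) is the size of the log2 fold change divided by the square root of F. Within-library ratios used a pseudocount of 0.5 and were compared by exact permutation. Alternatives were other scalings, filters and tools (limma 3.58.1, DESeq2 1.42.0), the replicate number as a block, left-out libraries, the library group as a covariate and removal of immunoglobulin and mitochondrially encoded genes.

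The 9 genes, the pathway lists and the motifs were chosen with earlier results of these data known. Named are the 9 genes, 11 further genes fixed by name, from each list those past the FDR threshold and the 3 of smallest p per cell type, and the 5 genes of most alike pattern. Gene positions and promoters came from RefSeq (GRCm38.p6), matched by symbol. A gene of the cycle that the naming rule covers is not reported here.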

Additional observations from a re-analysis of the deposited data

Results flagged for a closer look

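A library stood apart from the others of its group, by the gap to its nearest neighbour as a share of the group's range (Dixon's ratio), in 6 of 90 HSC groups of values examined, and chance flags about 1 in 20 such groups. The mean score of the 9 genes was lowest among treated HSC libraries in MTP10-HDL 1, at -0.03 against 0.16 to 0.23 in the other 5 (ratio 0.71). Sucla2 was highest in PBS 4, at 51.3 CPM against 28.6 to 37.2 CPM (ratio 0.623), and so was Pdp2, at 101 CPM against 46.4 to 63.5 CPM (ratio 0.686). Got1 was lowest in MTP10-HDL 3, at 24.4 CPM against 35.0 to 38.6 CPM (ratio 0.749). Mcat was highest in PBS 1, at 13.3 CPM against 4.66 to 7.69 CPM (ratio 0.65), and Ppargc1a in MTP10-HDL 2, at 12.6 CPM against 4.77 to 7.44 CPM (ratio 0.661). No single one of the 9 genes was flagged in this way.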

How the results depend on the processing

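No setting took any of the 9 genes past the FDR threshold, with smallest adjusted p-values of 0.209 in HSCs (Ogdh, DESeq2) and 0.468 in MPPs (Fh1, edgeR with no filter on low counts). The HSC count of 0 genes called became 104 with DESeq2 (26 higher) and 44 with edgeR and no filter (7 higher). Under these settings all genes had a median of -0.23 and -0.15 (log2) and the 9 genes one of 0.24 and 0.31. Among the 9687 genes averaging at least 10 CPM in HSCs, these medians were 0.0032 and 0.19. There 2 of the 9 genes were higher at an unadjusted p under 0.05. Among the 9724 such genes in MPPs the medians were 0.0095 and 0.30, with 8 of the 9 higher and 0 at that level. With 1 library left out the HSC count ranged from 0 to 1 (1 without MTP10-HDL 4). DESeq2 was run without the filter in both cell types, so its counts differ from the main ones in tool and filter. The MPP count of 0 became 163 with DESeq2 (20 higher), 345 with no filter (49 higher) and 11 with all 4 groups in 1 fit (0 higher), and it ranged from 0 to 17 with 1 library left out (17 without PBS 3). The count of 1 for the difference between cell types became 4 with no filter, 0 among genes averaging at least 10 CPM, and 2 without immunoglobulin and mitochondrially encoded genes. With 1 library left out, the median of the 9 genes ranged from 0.19 to 0.33 in HSCs and from 0.25 to 0.45 in MPPs. Direction reversed for Idh3a without PBS 5 and 7 (-0.042), for Idh3a (-0.13), Suclg1 (-0.088) and Mdh2 (-0.026) in HSCs without the library group of PBS 5, 6 and 7, and for Dlst in MPPs at a mean of at least 10 CPM (-0.035). With 1 MPP library left out, Idh3b ranged from -0.0056 (without PBS 2) to 0.45 and Ogdh from -0.036 (without PBS 3) to 0.29. The cause of these changes was not tested. Without the 4 libraries of fewest detected genes the HSC median was 0.43, with 6 of the 9 genes at an unadjusted p under 0.05. Leaving out libraries by technical group was chosen after seeing the data. Same-numbered libraries did not deviate together (r from -0.185 to 0.192 over 6 HSC pairs, where 2 of 6 PBS libraries correlated best with their own number, and -0.168 and -0.0294 in MPPs). With the number as a replicate block, the HSC count stayed 0 and the median of the 9 genes was 0.20, against 0.19 for the same libraries without the block. In MPPs, where only numbers 2 and 3 occur in both treatments, the block gave 43 genes (0 higher) and a median of 0.34. The same MPP libraries without the block gave 0 genes and a median of 0.34.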
